A study of Homo sapiens with 9 samples.

Results

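Alpha and beta tubulin form the heterodimer from which microtubules are built, and human cells carry several genes, called isotypes, for each subunit. The 10 genes described here were TUBA1A, TUBA1B, TUBA1C and TUBA4A of the alpha family and TUBB, TUBB2A, TUBB2B, TUBB3, TUBB4B and TUBB6 of the beta family. Each was followed through 1 probe set that names that gene alone, the brightest where there were several, and all 10 were found among the 22109 genes measured.

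RNA came from MDA-MB-231, an established human breast cancer line of mesenchymal character, in all groups. The control group (3 arrays) received no treatment. YM-155 (sepantronium bromide), a small molecule known as an inhibitor of survivin expression, was added stepwise to a total of 83 ng/ml in the 8 h group (3 arrays) and at its LC50 of 14.6 ng/ml in the 20 h group (3 arrays). Dose and time differed together, so the effects of dose and time cannot be told apart, and no vehicle or culture time was stated for the controls. Whether the 3 samples of a group were separate cultures is not stated, so the tests reflect the scatter among these samples alone, and that scatter may be technical.

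Microtubules grow and shrink by adding and losing tubulin dimers, and they form the mitotic spindle as well as the tracks of the resting cell. Beta isotypes differ mainly in their C-terminal tails, and TUBB3 and TUBB2B are best known from neurons, while TUBB and TUBB4B are widely expressed. Cells also adjust tubulin mRNA to the pool of free dimers: when free tubulin rises, the factor TTC5 recognises nascent tubulin chains on the ribosome and the mRNA is degraded, a process called tubulin autoregulation. Because isotype genes are close to one another in coding sequence, a probe set can also catch RNA of a relative, and no value below separates this from the gene's own RNA.

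The clearest change among the tubulins was in TUBB2A, which rose 2.85-fold at 8 h and 4.76-fold at 20 h. TUBB2B, a gene next to it on chromosome 6, passed the test against control at neither time. TUBB, the common beta tubulin gene, fell at 20 h, and its 3 treated arrays lay below all 3 controls. The regions before the starts of these 3 genes are shown because the genes behaved differently, TUBB2A and TUBB2B even as neighbours. They are RefSeq sequences of GRCh38.p14, 250 bases each up to the base before the annotated start. They lie at chr6:3157545-3157794 (minus strand) for TUBB2A, at chr6:3227654-3227903 (minus strand) for TUBB2B and at chr6:30720102-30720351 (plus strand, start 1 of 2) for TUBB. Capitals mark matches, on either strand, to the cAMP response element TGACGTCA, the TATA box TATAAA, the CCAAT box CCAAT and the cell cycle homology region TTTGAA.
TUBB2A: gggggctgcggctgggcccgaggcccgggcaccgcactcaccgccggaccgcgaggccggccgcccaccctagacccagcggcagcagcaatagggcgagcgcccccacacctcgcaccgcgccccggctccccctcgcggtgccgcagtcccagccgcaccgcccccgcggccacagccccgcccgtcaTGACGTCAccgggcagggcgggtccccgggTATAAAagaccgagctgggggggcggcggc
TUBB2B: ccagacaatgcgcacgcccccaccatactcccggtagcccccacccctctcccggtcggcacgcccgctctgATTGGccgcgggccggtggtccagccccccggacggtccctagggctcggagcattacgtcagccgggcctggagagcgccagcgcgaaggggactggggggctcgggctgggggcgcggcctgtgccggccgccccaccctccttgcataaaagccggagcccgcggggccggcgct
TUBB: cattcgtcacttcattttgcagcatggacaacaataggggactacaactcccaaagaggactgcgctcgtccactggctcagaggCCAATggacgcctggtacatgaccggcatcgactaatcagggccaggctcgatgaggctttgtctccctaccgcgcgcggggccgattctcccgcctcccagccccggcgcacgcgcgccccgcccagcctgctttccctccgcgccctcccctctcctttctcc

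All 10 genes matched the RefSeq promoter table, with 15 annotated starts in all. The window of TUBB2A held the element TGACGTCA, which binds CREB and ATF factors, with its 5′ base at position -60 from the start, and TATAAA at -30. It was the only 1 of the 15 windows with an exact match to either, against 1.65% and 10.7% of all 35116 windows of the table. CCAAT, bound by the factor NF-Y, was found in 9 of the 15 windows, against 32.0% of all windows. These windows belong to 7 of the 10 genes, with 3 matches before TUBB4B. The windows of starts 1 and 2 of TUBA1C overlap and hold the same CCAAT match, which is counted in both. TTTGAA was found before TUBA1C and TUBB4B (3 windows, against 13.3%). The GC box GGGCGG, not capitalised in the sequences, was found for 8 genes (9 windows, against 42.6%). Both strands were searched, and matches of different motifs did not overlap in the sequences shown. Only exact letters were counted. Near matches, such as CATAAA and TTACGTCA before TUBB2B or TATATAA before TUBB4B and TUBA1C, were not marked. A missing match therefore does not mean that a gene lacks the element. These are letter matches only and were not tested as binding sites.

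**Figure D1:**
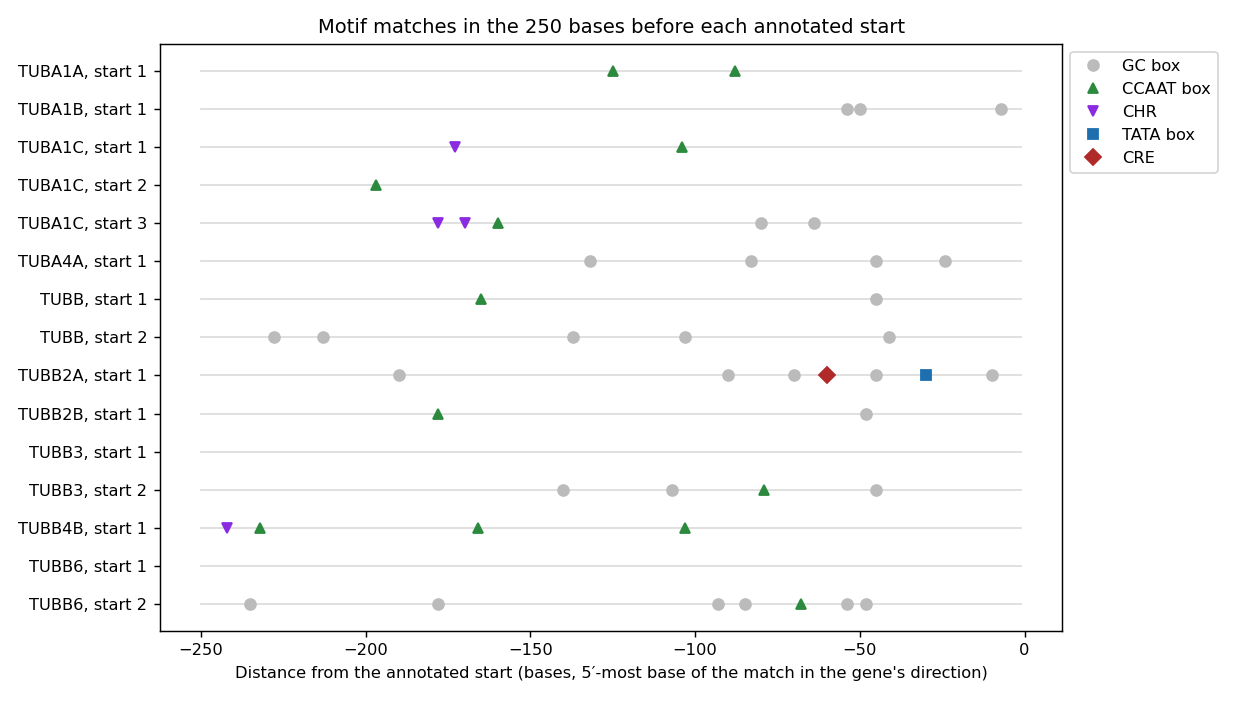
Matches to 5 motifs in the 250 bases before each of the 15 annotated starts of the 10 tubulin genes, with the distance from the start in bases on the x axis and 1 line for each start. The diamond (cAMP response element, at -60) and the square (TATA box, at -30) mark exact letters and appear only on the line of TUBB2A.

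Values are RMA summaries on the log2 scale, in which 1 unit is a doubling, and a level is compared only within a gene, since probe sets differ in brightness. Tests are limma's, with p adjusted over all 22109 genes and genes called at an adjusted p under 0.05. Array medians ran from 3.11 to 3.20, and the median level of all genes was 3.89. Of the 10 tubulin probe sets, 8 had a mean above that level, all but TUBA1A and TUBB2B. Of 10 mesenchymal markers fixed for this line, 9 were above it, among them VIM and AXL. Of 14 luminal markers measured, 10 were above it too, among them KRT19, XBP1, EPCAM and KRT18, while the hormone receptor genes ESR1 and PGR and their cofactor FOXA1 were below it. Of 11 leukocyte markers, 1 (CD68, which many cells express) was above it, and of 8 fibroblast markers 1 was (COL1A1). The mean of the luminal list rose from between 4.46 and 4.67 in controls to between 4.83 and 4.93 at 20 h, and that of the leukocyte list from between 3.34 and 3.42 to between 3.52 and 3.71. Their part in the tubulin results was not tested. Control replicate 3 differed most from its group. Across the 11054 genes above the median level, the SD of its difference was 0.312 from control 1 and 0.313 from control 2, which differed from each other with an SD of 0.187. The closest pair was 8 h replicates 1 and 2, with an SD of 0.147 and 1625 identical values, against 737 to 1122 identical values in the other pairs within groups. They were kept as separate samples, as labelled, and an alternative counted them as 1. Among the tubulins, control replicate 3 was higher than the mean of the other controls by 0.33 for TUBA1B and 0.32 for TUBA1C, and within 0.10 for the other 8.

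In cells given up to 83 ng/ml for 8 h, TUBB2A rose and TUBA1B fell, and the other 8 tubulins did not pass the test. These 2 of 10 compare with 12.2% of all genes called at 8 h (5.93% higher and 6.28% lower). Both lie among the 8 tubulins above the median level, and of all genes above that level 21.9% were called, so 2 of 8 is close to the background. The arrays of the groups did not overlap for 6 of the 10, against 27.4% of all genes. That share, like the one for 20 h below, covers genes of all levels and was not matched to the level of the tubulins. The median log2 difference of the 10 was -0.17, against -0.0030 over all genes. After 14.6 ng/ml for 20 h, TUBB2A rose and TUBB and TUBA1A fell, 3 of 10 against 30.3% of all genes (13.1% higher and 17.2% lower), a share close to the background. Of the 8 above the median level 2 were called (TUBB2A and TUBB), against 51.1% of all genes above it. The arrays did not overlap for 5 of the 10, against 40.6% of all genes, and the median difference was 0.12, against 0.028 over all genes. The 5 include TUBB3, whose lowest 20 h value, 4.454, was barely above its highest control, 4.4537. The tubulin genes did not move as 1 block.

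**Figure D2:**
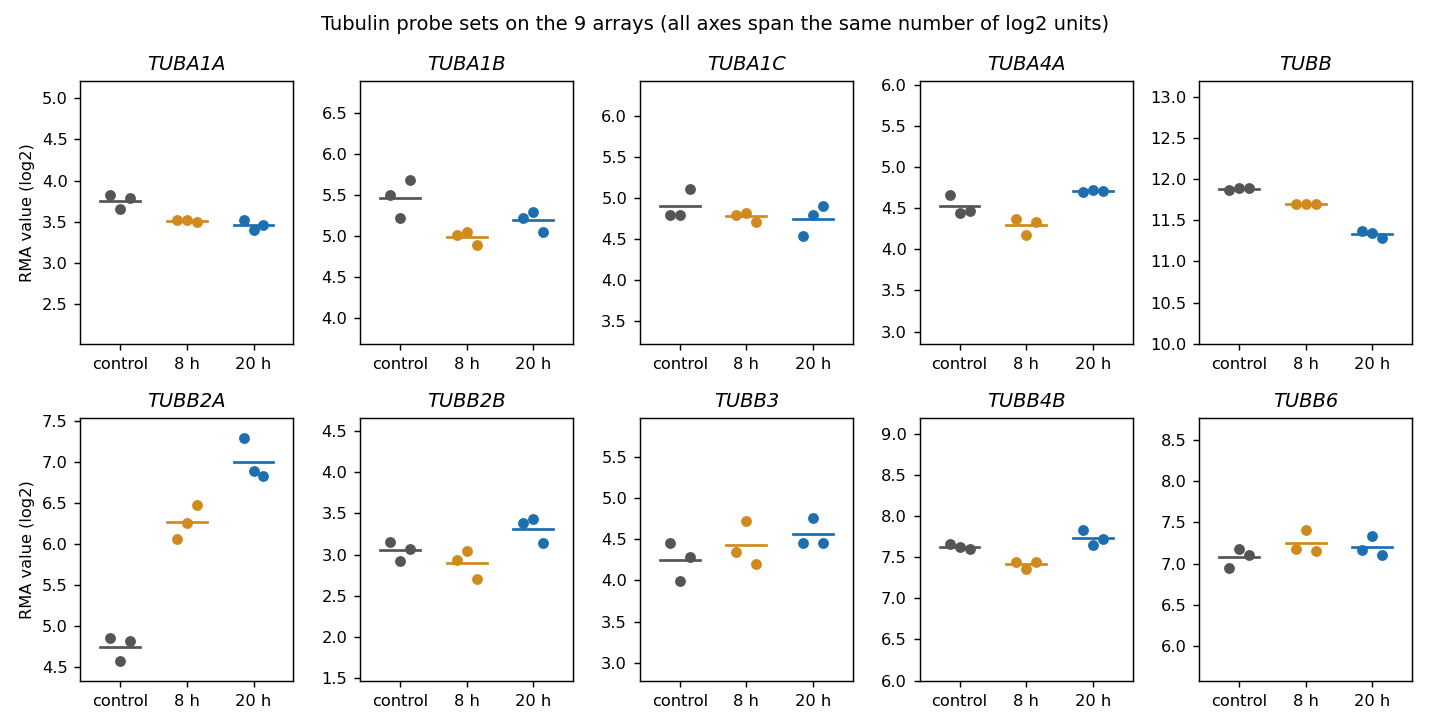
RMA values (log2, y axis) of the 10 tubulin probe sets on the 9 arrays, with 3 points per group (control, 8 h, 20 h) and a line at each group's mean; every panel spans the same number of log2 units. TUBB2A climbs from 4.58 to 4.86 in controls to between 6.83 and 7.29 at 20 h, and the 3 groups of TUBB lie apart in steps from 11.86 to 11.90 in controls down to 11.29 to 11.37 at 20 h.

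The TUBB2A gene encodes a beta tubulin that is common in brain and present in many other tissues. Its values were 4.86, 4.58 and 4.82 in the controls, 6.05, 6.25 and 6.47 at 8 h and 7.29, 6.88 and 6.83 at 20 h. All 8 h arrays were above all controls and all 20 h arrays above all 8 h arrays. The level was 4.75 ± 0.15 in controls and 6.26 ± 0.21 at 8 h (SD, n = 3). The rise was 1.51 at 8 h (SE 0.15, limma adjusted p = 0.000155) and 2.25 at 20 h (SE 0.15, limma adjusted p = 2.19e-06). Only 64 of the 22109 genes had a larger rise at 8 h, and 70 at 20 h. The 20 h arrays were also higher than the 8 h arrays, by 0.74 (SE 0.15, limma adjusted p = 0.00509). All 3 calls held under each of the 19 alternatives run, including the fit without control replicate 3.

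TUBB2B, the neighbour of TUBB2A and a tubulin best known from the developing brain, had a probe set of low signal. It read 3.16, 2.92 and 3.07 in controls, 2.94, 3.04 and 2.70 at 8 h and 3.38, 3.43 and 3.14 at 20 h. The treated arrays overlapped the controls at both times, with differences of -0.16 at 8 h (95% confidence interval -0.42 to 0.10) and 0.27 at 20 h (0.0054 to 0.52; limma adjusted p = 0.121). The 20 h arrays lay above the 8 h arrays, by 0.42 (SE 0.12, limma adjusted p = 0.0255). That call ended without 8 h replicate 1 (adjusted p = 0.0549) or 3 (0.0939) and without 20 h replicate 1 (0.0769) or 2 (0.0916). Genes at or below the median level had a median difference of 0.046 in that comparison. The ratio of TUBB2A to TUBB2B within arrays rose by 1.67 at 8 h and by 1.98 at 20 h against control, with no overlap between the arrays. The two-sided exact permutation p was 0.1 for each, the smallest that 3 against 3 arrays allow (adjusted p = 0.15 over 6 such ratio tests).

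TUBB encodes the beta tubulin of most dividing cells, and its probe set was among the brightest on the arrays. The values were 11.86, 11.90 and 11.89 in controls, 11.70, 11.70 and 11.70 at 8 h and 11.37, 11.34 and 11.29 at 20 h. All 8 h arrays lay below all controls and all 20 h arrays below all 8 h arrays. At 20 h TUBB fell by 0.55 (SE 0.07, limma adjusted p = 0.000148), which is 1.46-fold and held under all 19 alternatives, and it was lower than at 8 h by 0.36 (SE 0.07, limma adjusted p = 0.00362). With the arrays quantile normalized again, that difference was -0.68. At 8 h the difference was -0.18 (SE 0.07, limma adjusted p = 0.121), which passed with a trended and robust variance (adjusted p = 0.0155) and turned to 0.091 when the arrays were quantile normalized again. TUBB had 7 probe sets naming it alone, 6 of them with identical values, and 1 that also names a pseudogene, TUBBP1. At 20 h the other values were -0.52 for the 1 distinct probe set and -0.52 for the probe set shared with TUBBP1. The 17 genes with a mean of at least 11 had a median difference of 0.13 at 20 h.

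TUBB4B, the other widely expressed beta tubulin, was lower at 8 h than at 20 h. It read 7.66, 7.63 and 7.59 in controls, 7.44, 7.36 and 7.44 at 8 h and 7.83, 7.65 and 7.72 at 20 h. The 8 h arrays lay below all controls, while those at 20 h overlapped them. The differences from control were -0.21 at 8 h (SE 0.08, limma adjusted p = 0.113) and 0.11 at 20 h (SE 0.08, limma adjusted p = 0.346). The 20 h arrays were higher than the 8 h arrays by 0.32 (SE 0.08, limma adjusted p = 0.0133), although not once 8 h replicate 2 was left out (adjusted p = 0.0521). TUBB4B thus read higher and TUBB lower at 20 h than at 8 h, and their ratio within arrays rose by 0.68 (exact permutation p = 0.1, two-sided, the smallest possible; adjusted p = 0.15).

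TUBB3 and TUBB6 passed the test in no comparison. TUBB3, the neuronal class III tubulin that many carcinoma lines also express, read 4.45, 3.99 and 4.28 in controls, 4.35, 4.72 and 4.20 at 8 h and 4.45, 4.76 and 4.46 at 20 h. Its 20 h arrays lay just above the controls, with a difference of 0.32 (95% confidence interval -0.039 to 0.67, limma adjusted p = 0.175). TUBB6 encodes a more divergent beta tubulin. It ranged from 6.94 to 7.18 in controls, 7.16 to 7.40 at 8 h and 7.11 to 7.33 at 20 h, so the groups overlapped. Its differences were 0.17 at 8 h (95% confidence interval -0.060 to 0.40) and 0.13 at 20 h (-0.10 to 0.36).

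**Figure D3:**
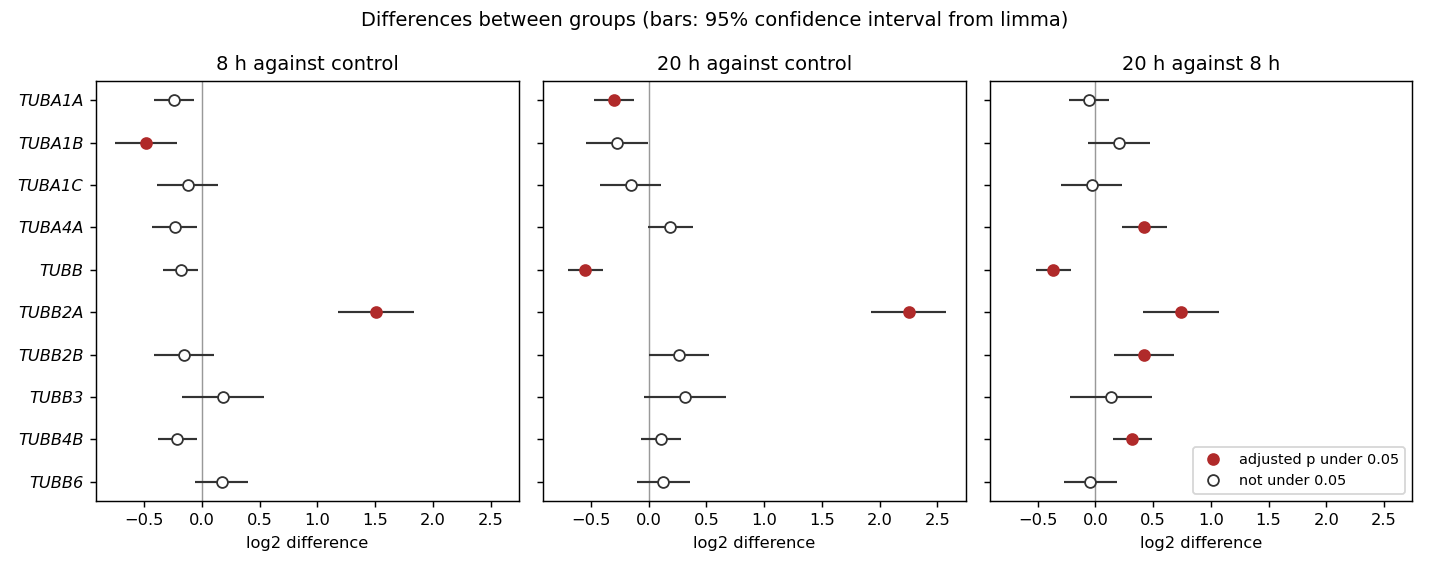
Log2 differences (x axis) of the 10 tubulin genes in the 3 comparisons, with 95% confidence intervals from limma as bars and filled points where the adjusted p was under 0.05. TUBB2A stands apart to the right in both comparisons with control (1.51 and 2.25), and TUBB lies to the left at 20 h (-0.55).

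Of the alpha tubulins, TUBA1A, TUBA1B and TUBA1C lie next to one another on chromosome 12, and TUBA1B and TUBA1C are the isotypes of most dividing cells. TUBA1B read 5.50, 5.22 and 5.68 in controls, 5.02, 5.06 and 4.89 at 8 h and 5.22, 5.30 and 5.06 at 20 h. All 8 h arrays were below all controls, and the 20 h arrays overlapped them. At 8 h it fell by 0.48 (limma adjusted p = 0.028, SE 0.12) and differed by -0.28 at 20 h (SE 0.12, limma adjusted p = 0.118). Control replicate 3, the array that stood apart, was the highest of all 9, and without it the 8 h difference was -0.37 (adjusted p = 0.0662). Leaving out control replicate 1 ended the 8 h call too (adjusted p = 0.0826), as did leaving out 8 h replicate 1 (0.0731), 2 (0.0587) or 3 (0.101). It ended with the 2 groups alone (0.0606), with a replicate block (0.0622) and with 8 h replicates 1 and 2 counted as 1 (0.0641). At 20 h, leaving out control replicate 2 gave -0.40 (adjusted p = 0.0244), and leaving out control replicate 3 gave -0.17 (0.315).

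TUBA1A, the alpha tubulin best known from neurons, had a probe set below the median level of all genes. It read 3.83, 3.65 and 3.78 in controls, 3.52, 3.52 and 3.49 at 8 h and 3.52, 3.39 and 3.46 at 20 h, so that every treated array was below every control. At 20 h it fell by 0.30 (SE 0.08, limma adjusted p = 0.0141). Leaving out control replicate 1 (adjusted p = 0.0552) or 20 h replicate 2 (0.0504) ended that call. At 8 h the difference was -0.24 (SE 0.08, limma adjusted p = 0.0727), which passed with array weights (0.0462). TUBA1C overlapped in all comparisons, from 4.80 to 5.11 in controls, 4.71 to 4.82 at 8 h and 4.53 to 4.91 at 20 h. Its differences from control were -0.12 (95% confidence interval -0.39 to 0.14) and -0.16 (-0.42 to 0.11). Without control replicate 3 they were -0.019 and -0.0505.

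TUBA4A, an alpha tubulin whose gene does not encode the C-terminal tyrosine that most alpha isotypes carry, lies on chromosome 2. It read 4.66, 4.45 and 4.47 in controls, 4.37, 4.17 and 4.33 at 8 h and 4.70, 4.72 and 4.71 at 20 h. The 8 h arrays were below all controls and the 20 h arrays above them. Neither difference passed against control, at -0.23 (SE 0.09, limma adjusted p = 0.127) and 0.19 (SE 0.09, limma adjusted p = 0.144), although the second passed when the arrays were quantile normalized again (0.28, adjusted p = 0.0423). Between 20 h and 8 h the difference was 0.42 (SE 0.09, limma adjusted p = 0.00632), and this held under all 19 alternatives.

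When the 20 h arrays were set against the 8 h arrays, 5 of the 10 tubulins were called, against 22.6% of all genes. Of the 8 above the median level 4 were called, against 38.2% of the genes above it (13.4% higher and 24.8% lower). TUBB2A, TUBB2B, TUBB4B and TUBA4A were higher, where 8.95% of all genes were, and TUBB was lower, where 13.6% were. The arrays did not overlap for these 5 genes, against 38.3% of all genes, a share not matched for level. The median over the 10 was 0.17, against 0.019 over all genes. This comparison shares its arrays with the other comparisons and is not a further replicate of them.

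Several tubulin values were equal to the last digit between arrays, as for TUBA1A on 3 arrays. Such ties occurred for 5 of the 10 tubulins (TUBA1A, TUBA1B, TUBA1C, TUBB and TUBB6) and for 45.1% of all genes.

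For each tubulin, the gene with the most similar profile over the 9 arrays was sought among 11046 other genes above the median level. For TUBB2A it was SRFBP1 (Pearson r = 0.989), which rose by 0.59 at 20 h. For TUBB it was DROSHA, the nuclease of microRNA processing (r = 0.998), which fell by 0.94. For TUBA4A it was SRSF2, a splicing factor (r = 0.937), and for TUBA1B RNF135 (r = 0.973). For TUBA1A it was PLPBP (r = 0.982). The others were MAST3 for TUBA1C (0.953), CTIF for TUBB2B (0.964), ZNF747 for TUBB3 (0.949), LOC100192426 for TUBB4B (0.962) and PPP1R14B for TUBB6 (0.874). These are descriptions over 9 arrays that fall into 3 groups, so a likeness reflects mainly the 3 group means.

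The other microtubule genes were read from 7 lists. At 20 h 13.1% of all genes were higher and 17.2% lower, and of the genes above the median level 20% and 31.1%. The shares at 8 h were 5.93% and 6.28% of all genes, and 10.7% and 11.2% of those above the median level. Of the other tubulins, of which 4 of 9 lie above that level, 1 was higher and 3 were lower at 20 h, with a median of -0.0098. TUBD1, the delta tubulin of centrioles, fell by 0.55 at 8 h (limma adjusted p = 0.0261) and by 1.40 at 20 h (limma adjusted p = 2.75e-05). TUBG1, the gamma tubulin that nucleates microtubules, fell by 0.42 at 20 h (limma adjusted p = 0.00874). The remaining calls were of probe sets with low signal, TUBB4A higher by 0.45 from a level of 1.69 and TUBA3E lower by 0.28 from 2.49.

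Most genes for microtubule nucleation fell at 20 h. Of 15 measured, among them the gamma tubulin ring subunits and the augmin complex that branches spindle microtubules, 14 were lower, with a median of -0.94. All 15 lie above the median level, where 31.1% of genes were lower. HAUS1, HAUS6 and HAUS8 of augmin fell, with log2 differences of -1.37, -1.32 and -1.28, and so did TUBGCP5 of the ring, with -1.32. At 8 h, 3 were lower, against 11.2% of the genes above the median level. Without control replicate 3, 14 were lower at 20 h and 2 at 8 h.

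Genes of proteins that act on the microtubule lattice were called lower more often than higher at 20 h. Of 36 microtubule-associated and plus-end genes, 5 were higher and 13 lower at 20 h, with a median of -0.018. Of the 36, 26 lie above the median level, where 20% of genes were higher and 31.1% lower. All 13 lower genes are among these 26, a larger share than 31.1%. Of the 5 higher genes, MAP1A and MAPT lie below that level. CKAP2, TPX2, NUSAP1 and PRC1, which all work on the mitotic spindle, fell, with differences of -1.89, -1.75, -1.63 and -1.51. Of 15 destabilisers and severing enzymes, 11 of them above that level, 1 was higher and 9 lower (median -0.42; 31.1% lower among all genes above it), with differences of -1.68 for KIF18A, -1.67 for KIF2C and -1.31 for KIF18B, kinesins that shorten or dampen microtubule ends. FIGNL1, listed with the severing enzymes but also known for its part in homologous recombination, fell by 1.74. At 8 h, 3 of the 36 were higher and 3 lower, and 2 of the 15 were lower. Of all genes above the median level 10.7% were higher and 11.2% lower at that time. Without control replicate 3, 4 of the 36 were higher and 13 lower at 20 h, and 1 and 9 of the 15.

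**Figure D4:**
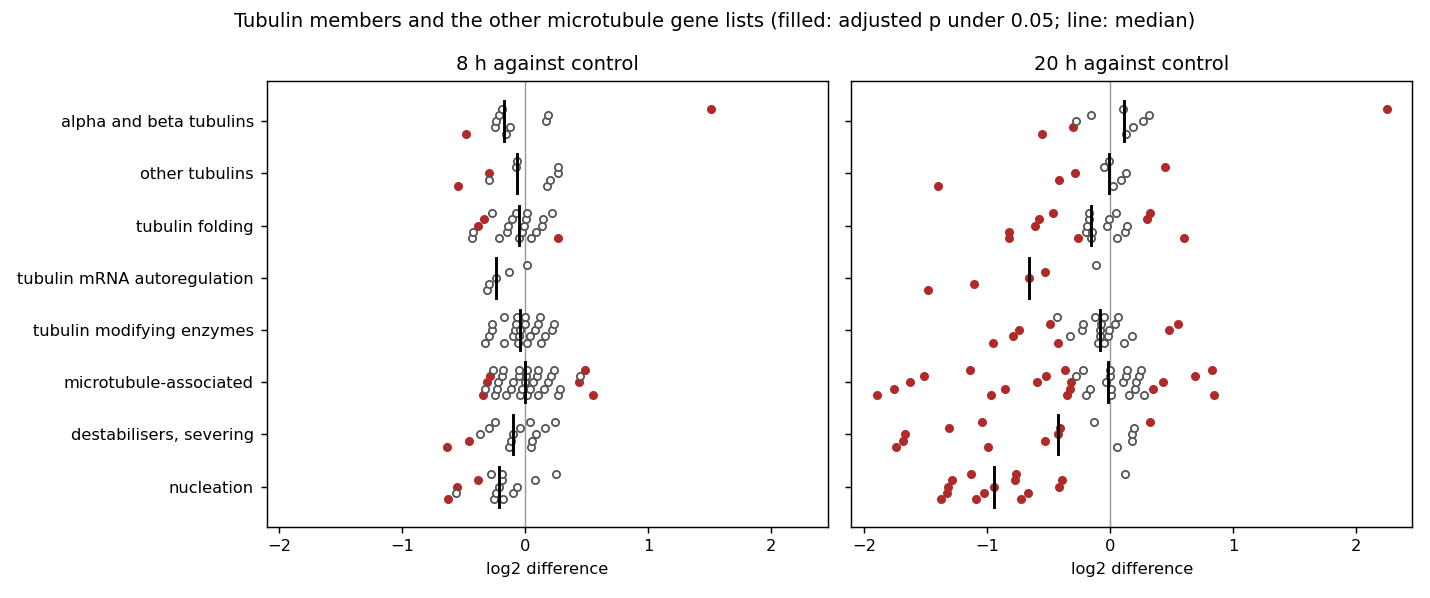
Log2 differences (x axis) of the 10 alpha and beta tubulins and of the genes of 7 other microtubule lists (rows) at 8 h and at 20 h against control, each point a gene, filled where the adjusted p was under 0.05, with a line at each list's median. The nucleation genes lie to the left at 20 h (median -0.94), whereas the tubulins centre near 0 (median 0.12) with TUBB2A alone far to the right.

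Tubulin folding and modifying genes were called in both directions. Of 21 folding genes, 20 of them above the median level, 3 were higher and 6 lower at 20 h (median -0.16), which is no more than the 20% and 31.1% of genes above that level. Cofactor D (TBCD) fell by 0.82 and the cofactor E-like gene TBCEL by 0.82. PDCL3, a phosducin-like chaperone with a probe set of low signal, rose by 0.60 from a level of 3.29. TBCK, which fell by 0.61, was on the list by its name but encodes a TBC domain protein and is not known as a tubulin cofactor. Of 24 modifying enzymes, 14 of them above the median level, 2 were higher and 5 lower (median -0.083). Over all 24, the higher share is below the 13.1% of all genes and the lower share slightly above the 17.2%. All 5 lower genes are among the 14 above the median level, so 5 of 14 is slightly above the 31.1% of such genes. Of the 2 higher genes, SIRT2 lies above that level, where 20% of genes were higher, and VASH2 below it. TPGS2, a subunit of a tubulin polyglutamylase, fell by 0.95, the polyglutamylase TTLL7 by 0.79 and the deglutamylase AGTPBP1 by 0.74. The detyrosinating enzyme VASH2, also of low signal, rose by 0.55 from a level of 3.17. At 8 h, 1 folding gene was higher and 2 lower, against 10.7% and 11.2% of the genes above the median level. Of the modifying enzymes limma called 0 at 8 h, and 2 had an unadjusted p under 0.05, both lower. Without control replicate 3, 3 folding genes were higher and 8 lower at 20 h, and 1 and 5 of the modifying enzymes. At 8 h without that array, limma called 3 folding genes, all lower, and 1 modifying enzyme, which was higher.

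Of the 5 genes of tubulin autoregulation, 4 were lower at 20 h, against 17.2% of all genes and 31.1% of those above the median level (4 of the 5 are), with a median of -0.66. SCAPER, the adaptor between TTC5 and the CCR4-NOT deadenylase, fell by 1.48 (SE 0.13, limma adjusted p = 1.88e-05). TTC5, the 1 gene of the 5 with a mean below the median level, fell by 0.53 (SE 0.12, limma adjusted p = 0.00536). The CCR4-NOT subunits CNOT10 and CNOT11 fell by 1.11 and 0.66. CNOT1, the scaffold of that complex, differed by -0.11 (SE 0.07, limma adjusted p = 0.267). At 8 h limma called 0 of the 5, of which 3 had an unadjusted p under 0.05, all lower. Without control replicate 3, 4 were lower at 20 h and 1 at 8 h.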

How the data were processed

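Per the labels, each of the 9 RNA samples was labelled with biotin and run on an Affymetrix whole-transcript array, and the authors' deposited values are log2 summaries made with RMA in Affymetrix Expression Console, per the submitters' processing notes. Versions and genome build are not given in the sources used here. RMA forces arrays to a shared distribution, so changes are relative to the other probe sets.

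Of 53617 probe sets, 23558 carried 1 symbol in the platform annotation, and the brightest per gene gave 22109 genes. The probe sets with several symbols (2155) were left out. A model of 3 group means over the 9 arrays was fitted with limma 3.58.1 under R 4.3.3, using eBayes (6 residual and 4.01 prior degrees of freedom), two-sided, with Benjamini-Hochberg adjustment. The number of arrays limits the precision. Data were simulated for 20 h against control over 22109 genes. A log2 change of 1 was recovered for 93% of the changed genes and one of 0.5 for 35%. Far fewer genes were changed there than the 30.3% called at 20 h. That makes the adjustment of p stricter, so these rates need not hold here. Named genes were the 10 tubulins, up to 4 called genes per list by their change at 20 h, lists of at most 8 genes in full and the most similar profile. Members and lists were chosen with earlier results of these data known. Promoters came from the RefSeq table of GRCh38.p14. Alternatives were a filter on low genes, other collapsing, normalization, centring, samples, weights and variance models, a replicate block and leaving out arrays. Python 3.11.15, scipy 1.17.1 and matplotlib 3.10.9 were used.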

Additional observations from a re-analysis of the deposited data

Results flagged for a closer look

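Between 8 h and 20 h, 5 tubulins differed in their change from control, by limma's test of 20 h against 8 h. TUBB2A was higher at 20 h by 0.74, TUBB2B by 0.42, TUBA4A by 0.42 and TUBB4B by 0.32, and TUBB differed by -0.36. For TUBA4A and TUBB4B the means at 8 h were below control and those at 20 h above it, with neither difference from control passing the test.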

How the results depend on the processing

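The calls of TUBB2A in all 3 comparisons, of TUBB at 20 h and of TUBA4A and TUBB between 20 h and 8 h held under all 19 alternatives. The 2 tubulins called at 8 h became 1 when 8 h replicates 1 and 2 were averaged, with the replicate block and with the 2 groups alone, and were 1 to 2 when an array was left out, the gene lost being TUBA1B. They became 3 with array weights, which added TUBA1A, and with the trended and robust variance, which added TUBB. The block changed no other call of a tubulin. Replicate numbers were not treated as pairs, since deviations of same-numbered arrays correlated between -0.318 and 0.111. TUBA1A and TUBB2B could not be fitted with the filter on low genes, which removes them. Called tubulins numbered 2 to 4 at 20 h and 4 to 5 between 20 h and 8 h over all alternatives. The cause of these differences was not tested. Signal limits TUBA1A and TUBB2B, whose probe sets lie below the median level. The call of TUBA1B at 8 h was lost under 8 of 19 alternatives, that of TUBB2B between 20 h and 8 h under 4 of 18 and that of TUBA1A at 20 h under 2 of 18.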
